A study of Mus musculus with 9 samples.

Results

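The catalytically inactive form of DNMT1 was compared with the absence of the protein at day 2 of differentiation, as the difference in log2(FPKM + 1) between 1KO+1CI and 1KO cells. The comparison takes 2 of the 9 RNA-seq libraries of the series and covers every gene and every repeat copy in the deposited tables, 15074 genes and 38385 copies of 1042 repeat families. 1KO cells are Dnmt1-/- embryonic stem cells (ESCs) derived from the wild-type (WT) mouse line J1. 1KO+1CI cells are a clone of the same Dnmt1-/- cells with a transgene for DNMT1 C1229S, driven by the CAG promoter and linked through an IRES to zeocin resistance. They differ from 1KO cells in the transgene and also in having been selected and cloned. Both lines were kept with LIF on mitomycin C-treated mouse embryonic fibroblasts. The fibroblasts were then removed on gelatin and the cells were grown without LIF, for 1 day as embryoid bodies and then as adherent cells. Day 2 is therefore early in the exit from the ESC state. WT cells at day 2 are given as a reference level.

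DNMT1 is the maintenance DNA methyltransferase. It is brought to newly replicated DNA by UHRF1 and copies the methylation of CpG sites to the daughter strand. The catalytic cysteine attacks the target cytosine, and without it the protein can still bind DNA and its partners. ESCs tolerate the loss of DNA methylation while they self-renew. Loss of methylation is known to release germline genes, some imprinted genes and endogenous retroviruses of the IAP group. The present comparison asks what changes when the protein is put back without its activity.

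Each condition had 1 library. No difference could be set against the spread between cultures, and no test was run. A difference of 1 is a 2-fold change at high levels, and the added 1 FPKM makes the change look smaller in genes near or under 1 FPKM. The 2 libraries held about 21000000 (1KO) and 21200000 (1KO+1CI) reads, within the range of 20100000 to 28000000 over the 9 libraries. At this depth 1 FPKM over 1000 bases is about 21 reads, with a 95% Poisson interval of 13 to 32.1. Whole reads could be recovered for 2635 genes, and the ratios of their FPKM are given with an exact 95% binomial (Clopper-Pearson) interval that covers counting error only.

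Dnmt1 had 80.4 FPKM in WT, 17.4 in 1KO cells and 129 in 1KO+1CI cells at day 2. It was the highest difference of all genes, at 2.82, and the 1KO+1CI library was the highest of the 3. Whether the reads in 1KO cells came from the disrupted gene or from other cells of the culture was not tested, and the gene symbol does not separate reads of the gene from those of the transgene. The reference gene, transcribed from the minus strand, spans bases 20907209 to 20959888 of chromosome 9 (GRCm38), and the codon replaced in the transgene is in exon 32 of 39, at chr9:20911813-20911815. The reference coding sequence around it is shown because this cysteine codon, in capitals, is the only designed difference between the active and the inactive protein.
Dnmt1, catalytic cysteine: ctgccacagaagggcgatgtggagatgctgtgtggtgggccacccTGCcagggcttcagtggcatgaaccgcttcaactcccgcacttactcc

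Few genes differed strongly. Of the 15074 genes, 23 were higher (0.153%) and 28 were lower (0.186%) in 1KO+1CI cells by at least 1. By at least 0.5, 350 were higher (2.32%) and 252 lower (1.67%). The median difference was 0.015, and the SD over genes was 0.23. For scale, 1KO against WT cells at day 2 gave 241 genes higher (1.6%) and 100 lower (0.663%) by at least 1, in a comparison that uses the same 1KO library. Of the 51 genes past 1, 25 were microRNA or small nucleolar RNA entries, which are described apart. A mean of at least 10 FPKM was reached by 7 of the 51 and by 6001 of all genes.

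**Figure D1:**
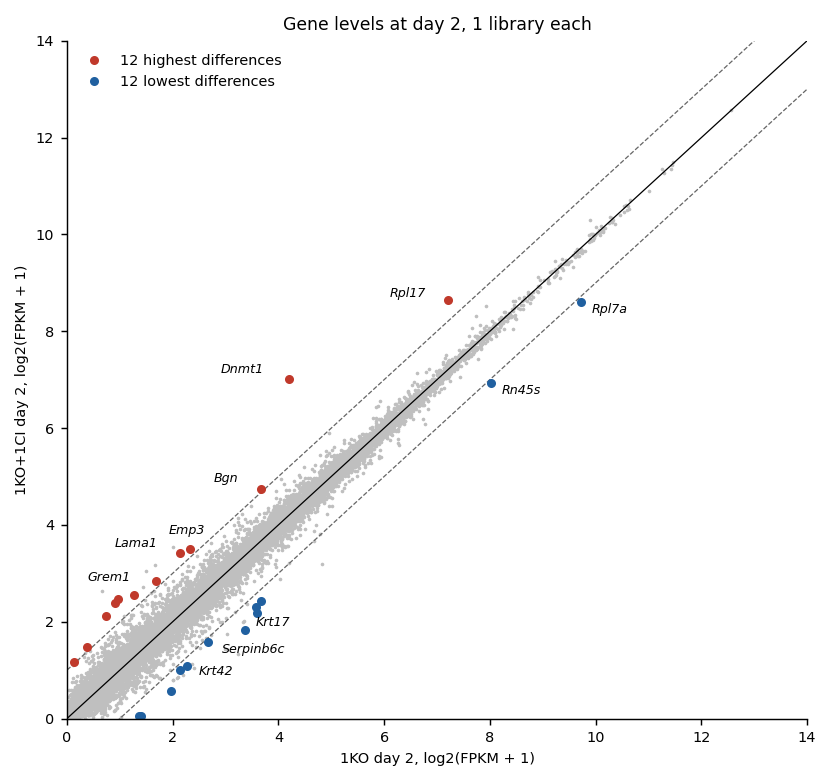
Level of each of 15074 genes in 1KO (x axis) and 1KO+1CI cells (y axis) at day 2, both as log2(FPKM + 1) from 1 library each, with equality as a solid line and a difference of 1 either way as dashed lines. Red and blue points are the 12 highest and 12 lowest differences outside microRNA and small nucleolar RNA entries, led by Dnmt1 at 2.82 and Krt17 at −1.53, and the gray points beyond the dashed lines are the other genes past 1, 25 of them small RNA entries.

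The 12 largest rises outside small RNA entries included a laminin chain, a BMP antagonist and a matrix proteoglycan. Lama1, the alpha 1 chain of laminin in the earliest basement membranes, had 1.03 FPKM in WT, 3.39 in 1KO cells and 9.71 in 1KO+1CI cells, a difference of 1.29 (chromosome 17, 67697259 to 67822647). Grem1, a secreted BMP antagonist, had 2.15, 2.21 and 6.12 FPKM in the same order, a difference of 1.15. Its 76 reads in 1KO cells and 213 in 1KO+1CI cells gave a ratio of 2.77 (interval 2.12 to 3.65). Bgn, which encodes the matrix proteoglycan biglycan, had 4.39, 11.7 and 25.7 FPKM, a difference of 1.07 (chromosome X, 73483602 to 73495933). WT cells were thus the lowest of the 3 libraries for Lama1 and Bgn, and close to 1KO cells for Grem1. In RNA from whole cultures, more cells of a type and more RNA per cell cannot be told apart, and the fibroblast markers that moved with these genes are given below.

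Emp3, an epithelial membrane protein, had 7.07 FPKM in WT, 4.04 in 1KO cells and 10.4 in 1KO+1CI cells, a difference of 1.18. Nrn1, which encodes the surface protein neuritin, rested on 10 reads in 1KO cells and 61 in 1KO+1CI cells, a ratio of 6.03 (interval 3.07 to 13.2) and a difference of 1.10. Rab20, a small GTPase of vesicle traffic, went from 0.099 to 1.23 FPKM, a difference of 1.02. All 3 genes were higher in 1KO+1CI cells than in either other day 2 library. Other genes differed by just under 1. Serpine2, an inhibitor of serine proteases, had 30.2 FPKM in 1KO cells and 58.3 in 1KO+1CI cells, Timp2, an inhibitor of metalloproteinases, had 10.2 and 20.1, and Mgp, matrix Gla protein, had 8.86 and 17.6. Cdh11, a mesenchymal cadherin, had 1.06 and 2.97 FPKM, and Cav1, the caveolar coat protein, had 4.51 and 9.26. These 5 genes, with differences of 0.93, 0.92, 0.92, 0.95 and 0.90, were picked from many of that size after their values had been seen. Cox7b2, a respiratory chain subunit (0.92), and Trp53i11, a p53-induced gene (0.92), lay in the same range.

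Keratins and a BMP ligand were lower in 1KO+1CI cells. Krt17, a type I keratin, had 10.7 FPKM in WT, 9.26 in 1KO cells and 2.56 in 1KO+1CI cells, a difference of −1.53 and the deepest fall outside small RNAs. Krt42, another type I keratin, had 10.7, 3.85 and 1.13 FPKM, a difference of −1.18. The 2 genes are neighbours on chromosome 11, from 100256217 to 100261029 and from 100262882 to 100269871. For both keratins the WT library was highest and the 1KO+1CI library lowest.

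Serpinb6c, of the intracellular serpins, had 148 reads in 1KO cells and 56 in 1KO+1CI cells, a ratio of 0.374 (interval 0.27 to 0.51) and a difference of −1.08. Bcl2l15, of the BCL2 family, had 3.40 and 1.01 FPKM, a difference of −1.13. The unnamed transcript 5730408K05Rik had 89 and 29 reads, a ratio of 0.322 (interval 0.20 to 0.50) and a difference of −1.40. Bmp4, the BMP ligand active in early mesoderm, had 18.5 FPKM in WT, 8.84 in 1KO cells and 4.49 in 1KO+1CI cells, a difference of −0.84. Ntn1, the guidance cue netrin 1, had 16.6, 7.05 and 3.22 FPKM in the same order (−0.93). Mov10, an RNA helicase that restrains retroelements, had 42.6, 24.5 and 13.7 FPKM, a difference of −0.79. Ntn1 and Mov10 were picked after their values had been seen.

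Several of the 24 extreme genes cannot be assigned with certainty, because near-identical copies may share their reads. Hist2h2aa1 and Hist2h2aa2, neighbouring histone H2A genes, had 11 reads in 1KO cells and 53 in 1KO+1CI cells each, with the same ratio of 4.77 (interval 2.46 to 10.1). Tmem254b and Tmem254c had 1.64 and 1.58 FPKM in 1KO and 0.036 and 0.035 in 1KO+1CI cells, differences of −1.35 and −1.32. Rpl17 had 146 FPKM in 1KO cells and 397 in 1KO+1CI cells (1.44), while Rpl7a had 843 and 388 (−1.12), although the 81 ribosomal protein genes measured had a median difference of 0.01. Both have many processed copies in the genome. Among 39 replication-dependent histone genes, whose messages mostly lack a poly(A) tail, 7 were higher and 4 lower by at least 0.5 (2.32% and 1.67% of all genes). Hist1h3c had 29 and 5 reads, a ratio of 0.170 (interval 0.05 to 0.45), and Hist1h3d had 1 and 13. Erdr1, a gene near the X and Y pseudoautosomal region, had 10.9 FPKM in 1KO cells and 3.95 in 1KO+1CI cells, a difference of −1.26. DQ267100 and AF357425, small RNAs of the Meg3 and Rian region of chromosome 12, had 1 and 2 reads in 1KO against 5 and 7 in 1KO+1CI cells, and the intervals of both ratios hold 1. Small RNA entries were recognized by symbol, so these genes are counted outside them.

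Ribosomal precursor RNA was lower in the 1KO+1CI library. Rn45s, the 45S precursor, had 166 FPKM in WT, 258 in 1KO cells and 120 in 1KO+1CI cells, a difference of −1.10, and the rRNA family LSU-rRNA_Hsa (18 copies) had a mean of 518, 609 and 425 FPKM, a difference of −0.52. The libraries were made with oligo(dT) beads, so a different amount of the transcript and a different remainder after that selection cannot be told apart. Of the 188 microRNA and small nucleolar RNA entries, 25 were past 1 either way, 13.3% against 0.175% of the other 14886 genes. All 25 had recovered reads, 24 of them at most 20 reads in either library, and for 18 the interval of the ratio held 1.

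Gene lists by function moved little. Of 42 lists, 3 had a median difference beyond 0.25, beside 0.015 over all genes. The naive pluripotency list was lower, with a median of −0.27, and the lists of primitive endoderm genes and of fibroblast markers were higher, with 0.42 and 0.40. In 18 lists no member was past 0.5. Over all genes 2.32% were higher and 1.67% lower by at least 0.5. Higher by any amount were 53.5% of 11778 genes with a known position and a mean of at least 1 FPKM.

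**Figure D2:**
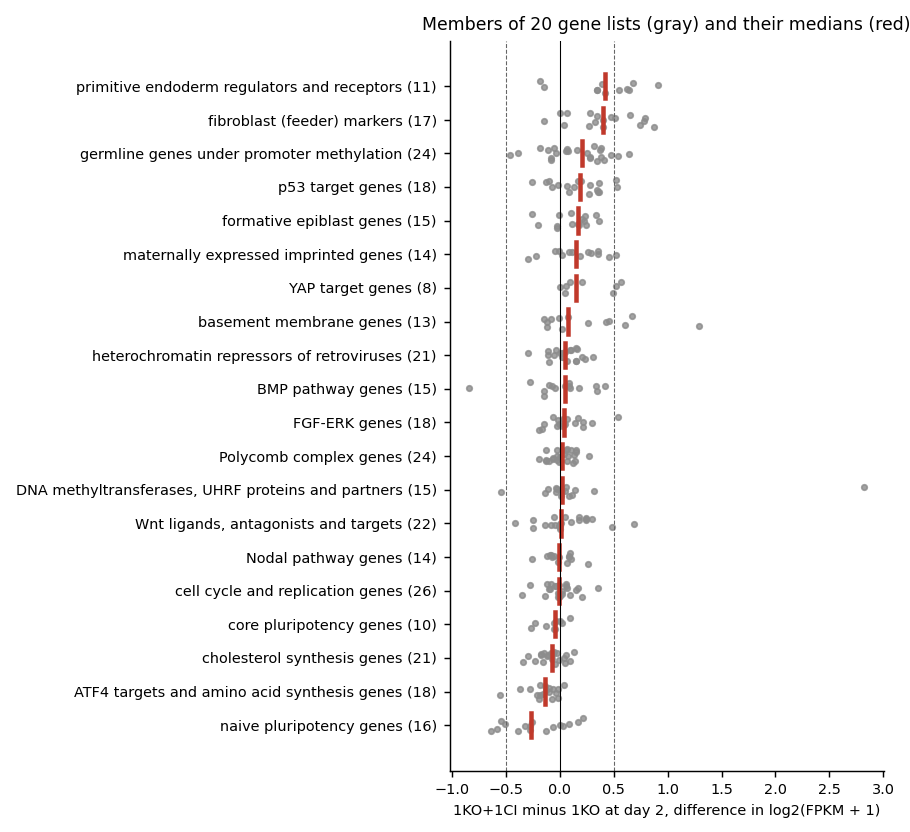
Day 2 level in 1KO+1CI minus that in 1KO cells, in log2(FPKM + 1) (x axis), for the members of 20 of the 42 gene lists, with the number measured in parentheses. Gray points are genes, red bars are list medians and dashed lines mark 0.5 either way, and the naive pluripotency list lies lowest (−0.27) and the primitive endoderm list highest (0.42).

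Naive pluripotency factors hold the ESC state and are switched off when ESCs begin to differentiate. Of 16 genes measured, 11 were lower and 5 higher. By at least 0.5, 4 were lower (1.67% of all genes) and none was higher (2.32%). Klf2, a Krüppel-like factor, had 158 FPKM in WT, 76.9 in 1KO cells and 48.9 in 1KO+1CI cells, a difference of −0.64. Tfcp2l1, a factor downstream of LIF, had 25.3, 9.40 and 5.94 FPKM (−0.58). For both genes the 1KO+1CI level was the lowest of the 3 and the WT level the highest. Nr5a2, an orphan nuclear receptor, had 14.5, 12.6 and 8.32 FPKM (−0.54), and Nanog, the homeobox factor of the naive network, had 89.5, 58.8 and 40.9 (−0.51). Klf4 was the highest of the list, at 4.67 FPKM in 1KO cells and 5.57 in 1KO+1CI cells, a difference of 0.21. Summed over the list, FPKM was 2085 in WT, 1500.0 in 1KO cells and 1309 in 1KO+1CI cells.

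The core pluripotency genes, which stay on longer, had a median of −0.05 and no member past 0.5. Pou5f1, their central POU factor, had 759 FPKM in 1KO cells and 645 in 1KO+1CI cells, a difference of −0.23. Formative epiblast genes, which come on after the naive state, had a median of 0.17 over 15 genes, 10 of them higher. Otx2 had 41.9 and 53.3 FPKM (0.34) and Fgf5 14.7 and 16.7 (0.17), and the highest was Sall2 at 18.4 and 24.01 (0.36). Of 10 primitive streak genes measured, 4 were higher and 6 lower. Fgf8, the highest of them, had 1.03 and 1.96 FPKM (0.54) and was the 1 member past 0.5 (2.32% of all genes). Mixl1, the lowest, had 26 reads in 1KO cells and 8 in 1KO+1CI cells. Its ratio was 0.304 (interval 0.12 to 0.69) and its difference −0.40. Primitive streak, neuroectoderm and mesoderm lists had medians of −0.08, −0.02 and 0.07.

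Primitive endoderm is the lineage that lines the early embryo, set up by GATA and SOX factors and marked by endocytic receptors. Of 12 genes listed 11 were measured, 9 were higher in 1KO+1CI cells and 5 of them by at least 0.5 (2.32% of all genes). Dab2, the endocytic adaptor, had 0.968 FPKM in WT, 2.64 in 1KO cells and 5.85 in 1KO+1CI cells, a difference of 0.91. Cubn, the receptor cubilin, had 0.095, 0.650 and 1.64 FPKM (0.68). Among the regulators, Gata4 had 1.15, 0.796 and 1.81 FPKM (0.65) and Gata6 had 79 reads in 1KO cells and 159 in 1KO+1CI cells, a ratio of 1.99 (interval 1.51 to 2.64). Sox7 had 16 and 56 reads. Lrp2, the receptor megalin and the most abundant gene of the list, was the lowest, with 17.5 and 15.3 FPKM (−0.19). Most of these genes were near or under 1 FPKM, and the list median rose to 1.14 when 0.01 in place of 1 was added before the logarithm.

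Basement membrane genes, which primitive endoderm secretes in quantity, had a median of only 0.07 over 13 genes, with 3 past 0.5. Beside Lama1, these were the type IV collagen chains Col4a1, with 14.4 FPKM in 1KO cells and 22.5 in 1KO+1CI cells (0.61), and Col4a2, with 6.59 and 11.1 (0.67). Lamb1 had 30.8 and 41.8 FPKM (0.43), whereas Lamc1 (0.07), Nid1 (−0.08) and Hspg2 (−0.12) were near 0. The visceral endoderm list had a median of −0.03.

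Fibroblast markers moved with these genes. Of 18 markers 17 were measured, 16 were higher in 1KO+1CI cells and 6 by at least 0.5 (2.32% of all genes). None is listed at 0. Col1a1, the main collagen chain of fibroblasts, had 4.17 FPKM in WT, 5.63 in 1KO cells and 9.41 in 1KO+1CI cells (0.65), and Col6a1 had 0.780, 1.11 and 2.86 (0.87). The others past 0.5 were Col6a2 (0.79), Fbln2 (0.78), S100a4 (0.74) and Lox (0.51), while Postn (−0.15) and Thy1 (0.00) were not higher. Summed FPKM over the 17 markers was 172 in WT, 152 in 1KO cells and 194 in 1KO+1CI cells at day 2, against 332, 643 and 706 in the day 0 libraries. Tagln alone gave 115, 68.7 and 70.7 FPKM of the day 2 sums. By the median over markers, 1KO cells were above WT by 0.29 at day 2, opposite to the order of the sums. The level of each marker lay between 0.488 and 68.7 FPKM in 1KO and between 0.986 and 70.7 FPKM in 1KO+1CI cells. Fibroblasts also express Pdgfra, Bgn, Serpine2, Timp2 and type IV collagen. The part of remaining feeder cells in the higher matrix and primitive endoderm genes was not tested.

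**Figure D3:**
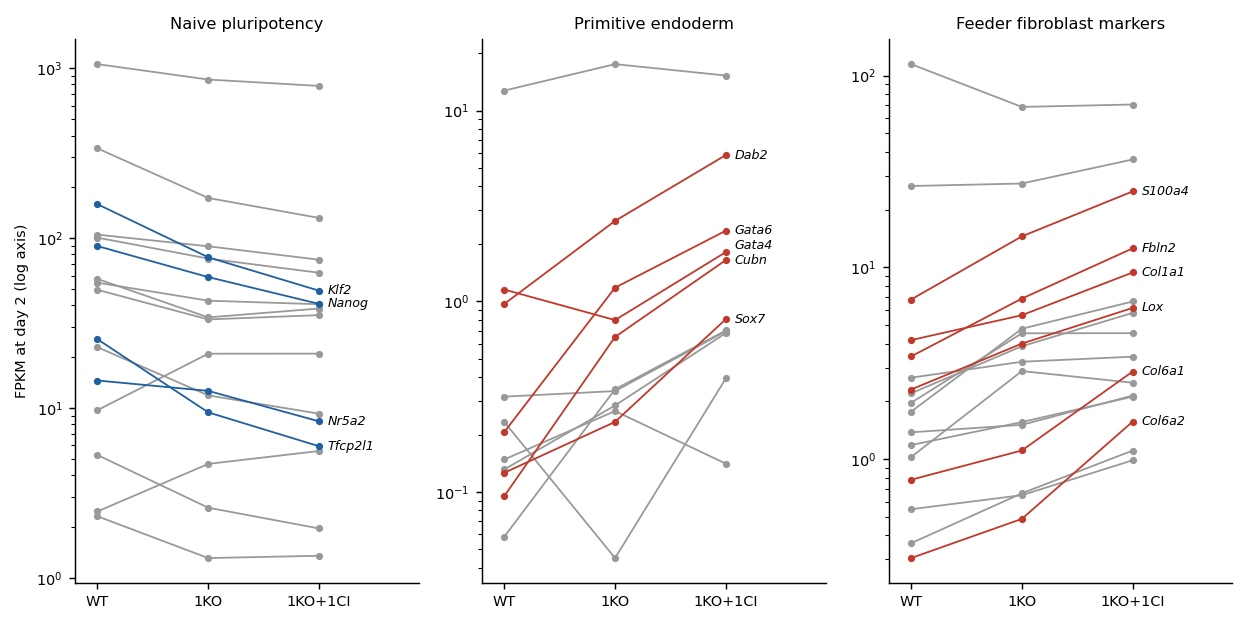
FPKM on a log axis (y) of each member of 3 gene lists in the day 2 libraries of WT, 1KO and 1KO+1CI cells (x axis), 1 library each and 1 line per gene. Named genes differ by at least 0.5 in log2(FPKM + 1) between 1KO+1CI and 1KO cells, 4 lower in blue and 5 and 6 higher in red, and Dab2 reaches 5.85 FPKM in 1KO+1CI cells.

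CpG sites, the substrate of DNMT1, differ in number between the promoters of genes that were higher in 1KO+1CI cells on all 3 days, by any amount. The 250 bases before the RefSeq start sites of 3 such genes (GRCm38.p6, strand of the gene) are shown with each CpG in capitals, to let the density be seen. Dab2 has 2 start sites, upstream of which there are 2 and 17 CpGs, Cubn has 2 CpGs and Grem1 24. Dab2 was higher by 0.46 at day 4. Promoters of other genes were not compared. FPKM per symbol does not separate the 2 Dab2 starts, and methylation of these windows was not measured here.
Dab2, first start, chr15:6299539-6299788, plus strand: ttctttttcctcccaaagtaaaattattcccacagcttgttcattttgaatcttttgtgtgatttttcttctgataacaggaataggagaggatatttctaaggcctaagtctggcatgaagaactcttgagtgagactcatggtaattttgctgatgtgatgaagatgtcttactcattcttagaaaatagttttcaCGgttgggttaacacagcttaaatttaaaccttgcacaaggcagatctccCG
Dab2, second start, chr15:6386498-6386747, plus strand: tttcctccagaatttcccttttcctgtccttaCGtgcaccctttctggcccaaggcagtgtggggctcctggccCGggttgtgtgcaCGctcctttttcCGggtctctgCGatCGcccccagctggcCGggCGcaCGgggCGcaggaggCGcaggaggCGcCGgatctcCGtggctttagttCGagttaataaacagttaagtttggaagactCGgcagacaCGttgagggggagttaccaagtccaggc
Cubn, chr2:13491877-13492126, minus strand: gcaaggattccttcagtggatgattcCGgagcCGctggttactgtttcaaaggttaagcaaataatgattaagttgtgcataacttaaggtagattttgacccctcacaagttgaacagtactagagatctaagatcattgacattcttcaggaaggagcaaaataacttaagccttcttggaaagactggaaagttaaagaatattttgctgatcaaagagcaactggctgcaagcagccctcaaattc
Grem1, chr2:113758649-113758898, minus strand: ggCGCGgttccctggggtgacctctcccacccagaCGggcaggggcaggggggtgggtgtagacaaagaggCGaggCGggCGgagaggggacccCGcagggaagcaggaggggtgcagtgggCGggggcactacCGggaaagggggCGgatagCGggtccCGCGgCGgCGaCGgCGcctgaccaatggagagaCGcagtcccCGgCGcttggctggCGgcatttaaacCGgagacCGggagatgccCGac

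Germline genes, which DNA methylation is known to hold down, summed to 88.7 FPKM in WT, 174 in 1KO cells and 204.3 in 1KO+1CI cells. Of 24 such genes measured, 2 were higher by at least 0.5 (2.32% of all genes) and none was lower by that much (1.67%). The median was 0.21. Sohlh2, a germ cell bHLH factor, had 2.63 FPKM in WT, 5.98 in 1KO cells and 9.92 in 1KO+1CI cells (0.65), and Hormad1, a meiotic chromosome protein, had 2.53, 9.35 and 14.1 (0.54). Dazl, the germ cell RNA-binding protein, had 2.30, 10.0 and 13.3 FPKM (0.38). Stk31 was the lowest, with 8.37 and 5.81 FPKM (−0.46). In all 4 genes the 1KO+1CI level was above that of WT cells.

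On the X chromosome, Rhox13 had 0.69 FPKM in WT, 3.38 in 1KO cells and 6.02 in 1KO+1CI cells, with 89 and 160 reads in the latter and a ratio of 1.78 (interval 1.36 to 2.33). Rhox1 was also higher (0.59). At day 0 both were lower in 1KO+1CI cells, Rhox13 by −0.37 and Rhox1 by −0.35. Rhox9 was lower at day 2, with 86 and 42 reads, a ratio of 0.483 (interval 0.33 to 0.71) and a difference of −0.80. Rhox6 was also lower, with 101 and 71 reads (interval 0.51 to 0.95, difference −0.43), and Rhox5 differed by −0.04. Of the 7 Rhox and Xlr genes measured, 4 were higher and 3 lower, with a median of 0.23. By at least 0.5, 2 were higher (2.32% of all genes) and 1 lower (1.67%). Among imprinted genes, Meg3, a maternally expressed noncoding RNA, had 36.7 and 52.98 FPKM (0.52), and the paternally expressed Mkrn3 had 3.53 and 2.18 (−0.51). H19, the maternally expressed noncoding RNA, had 6.80 FPKM in WT and stayed at 86.7 in 1KO cells and 87.9 in 1KO+1CI cells.

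The methylation and silencing machinery was little changed beside Dnmt1 itself. Dnmt3a had 51.8 FPKM in 1KO cells and 55.8 in 1KO+1CI cells (0.11), Dnmt3b 224 and 220 (−0.02), Dnmt3l 286 and 304 (0.09) and Uhrf1 149 and 138 (−0.11). Zfp57, the zinc-finger protein that protects imprints, was the other member past 0.5, with 132 FPKM in WT, 106 in 1KO cells and 72.4 in 1KO+1CI cells (−0.55). Among the 8 genes of TET oxidation, Tet2 was the lowest, at 5.70 and 4.24 FPKM (−0.35). Neither the 21 heterochromatin genes nor the 24 Polycomb genes had a member past 0.5, with medians of 0.05 and 0.02.

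In other pathways few members were past 0.5. Of 18 p53 targets 13 were higher, with a list median of 0.18. Pmaip1 (0.53) and Trp53inp1 (0.52) were higher by at least 0.5 (2.32% of all genes). The p53 list had medians of 0.34 at day 0 and 0.51 at day 4. Of 8 YAP targets 7 were higher, with a list median of 0.15. Ccn2, with 57.8 and 86.3 FPKM (0.57), and Ccn1, with 28.9 and 41.8 (0.52), were past 0.5. Sfrp2, a secreted Wnt antagonist (0.69), the AP-1 subunit Fosl1 (0.60), the peptide hormone gene Adm (0.66), and the respiratory chain genes Cox7b2 (0.92) and Cox4i2 (0.60) were higher. Cth, of cysteine synthesis (−0.55), the ATP synthase gene Atp5e (−0.70), Ankrd37, a hypoxia target (−0.50), and Oas1a, a sensor of viral RNA (−0.63), were lower, and Rpl30 was higher (0.59). The ATF4 list had 17 of 18 genes lower, with a median of −0.13. Lists of Nodal, cholesterol, glycolysis and cell cycle genes had medians between −0.07 and −0.01 and no member past 0.5.

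Few repeat families differed. Of the 371 families with at least 10 copies, 1 was higher (0.27%) and 1 was lower (0.27%) by at least 0.5, taking the level of a family as log2 of its mean FPKM plus 1. The higher one was L1MA6, an old LINE-1 family of 21 copies, at 4.01 FPKM in 1KO cells and 6.30 in 1KO+1CI cells (0.54). Without the copy that changed most its difference was 0.43. The lower one was LSU-rRNA_Hsa, given above. Of single copies, 1459 (3.8%) were higher and 1446 (3.77%) lower by at least 1, nearly equal numbers, with a median of −0.006. These shares are above those of genes at the same threshold.

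IAP elements, long terminal repeat retroviruses that DNA methylation silences in ESCs, differed little between the lines at day 2. IAPEz-int, their internal part (426 copies), had a mean of 0.792 FPKM in WT, 4.70 in 1KO cells and 4.62 in 1KO+1CI cells, a difference of −0.02. IAPLTR1_Mm, the matching terminal repeat (76 copies), had 1.41, 5.12 and 5.06 FPKM (−0.01), and IAPLTR1a_Mm (25 copies) 0.395, 1.37 and 1.24 (−0.08, although the median of the differences of its copies was 0.085). At day 0 these 3 families differed by −1.32, −1.37 and −1.18 between the lines, and at day 4 by 0.44, 0.33 and 0.34. Day 2 thus lay between a lower and a higher level in 1KO+1CI cells.

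Other retroviral families differed in both directions. Over all 7707 copies with long terminal repeats the median was −0.004, and 48.4% were higher. MMVL30-int (38 copies) had 1.38 FPKM in WT, 1.63 in 1KO cells and 2.24 in 1KO+1CI cells (0.30), with 27 copies higher and 11 lower. MMERVK10C-int (92 copies) had 0.933, 1.90 and 2.30 (0.19), with 61 higher and 31 lower. MMETn-int, the most abundant of the retroviral families named, had 64.1 FPKM in 1KO cells and 67.4 in 1KO+1CI cells (0.07), and MERVL-int, of the 2-cell stage, 0.760 and 0.872 (0.09). ORR1A0 (40 copies) differed by −0.19, MTA_Mm-int (193 copies) by −0.05 and MTA_Mm by −0.03. All of these belong to the ERVL-MaLR group, of whose copies 45.2% were higher. Young LINE-1 families differed by little. L1Md_T (1477 copies) differed by 0.11 with 1043 copies higher (70.6%), and L1Md_A (997 copies) by 0.10 with 691 higher (69.3%). L1Md_F2 (303 copies) differed by −0.06 with 122 higher (40.3%). Over all 5824 LINE-1 copies, which include these, 56.6% were higher. The SINE families B1_Mm and B2_Mm2 differed by −0.03 and 0.00. Copies were measured in the same libraries and can hold the same reads, and they do not stand in for replicate cultures. The lowest families after rRNA were MLT1A1 (−0.39, but 0.095 as the median of the differences of its 12 copies), RLTR20B1 (−0.33) with 11 of 11 copies lower, L1MEc (−0.31) and RMER10A (−0.30), and Tigger1 (0.32) followed L1MA6 at the other end.

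**Figure D4:**
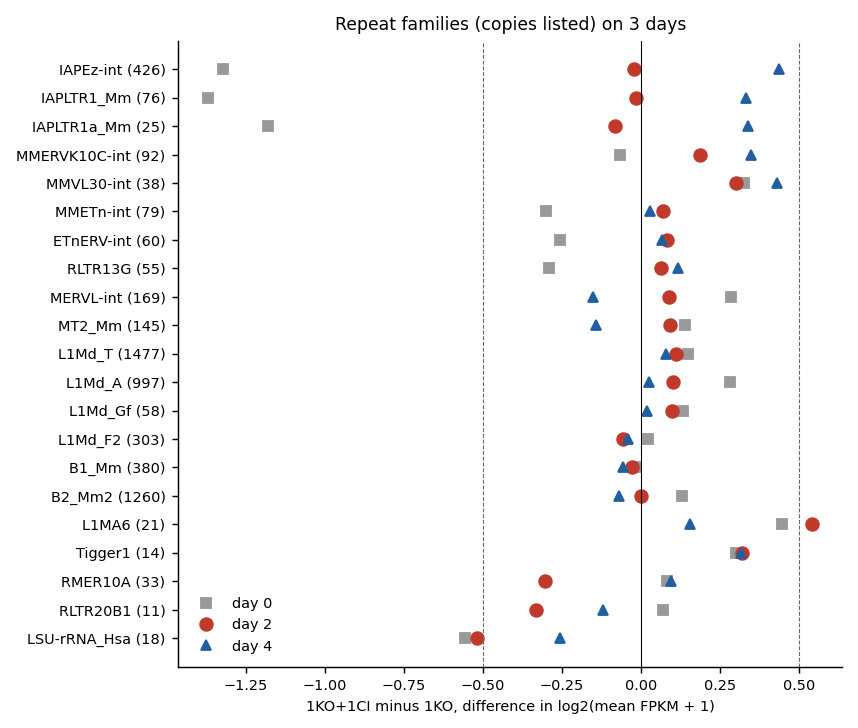
Difference between 1KO+1CI and 1KO cells in log2(mean FPKM + 1) (x axis) for 21 repeat families, with the number of listed copies in parentheses, at day 0 (gray squares), day 2 (red circles) and day 4 (blue triangles), 1 library per line and day. At day 2 the 3 IAP families at the top lie within 0.08 of 0, between day 0 values of −1.18 to −1.37 and day 4 values of 0.33 to 0.44.

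The same pair of lines at days 0 and 4 shares no library with the day 2 pair. Of the 14 genes higher by at least 1 at day 2 outside small RNAs, 7 were higher by at least 0.5 at day 0 (2.43% of all genes) and 5 at day 4 (4.36% of all genes). Dnmt1, Lama1, Grem1 and Bgn were so on both days. Dnmt1 is in these counts although the transgene carries it. The 7 at day 0 also include Hist2h2aa1 and Hist2h2aa2, which may share their reads. Lama1 differed by 0.69 at day 0 and 1.58 at day 4, Grem1 by 0.85 and 0.95, and Bgn by 0.58 and 1.52. Of the 12 genes lower by at least 1, 6 were lower by at least 0.5 at day 0 (3.62% of all genes) and 1 at day 4 (3.44% of all genes), and none on both days. Krt17 differed by −0.79 at day 0 and 0.70 at day 4.

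A difference of at least 0.5 on all 3 days was found for 30 genes that were higher (0.199% of all genes), 5 of them microRNAs. Lower on all 3 days were 9 genes (0.0597%), among them the small RNAs Mir3076, Snord72 and DQ267102. At day 2 Snord72 had 4 and 1 reads and DQ267102 8 and 5, and the intervals of both ratios hold 1. The higher genes included Spp1, Thbs1, Tnc, Serpine2 and Inhba, whose products are secreted and which were picked after their values had been seen. In 1KO cells all of these were lower at day 2 than at day 0, for example Tnc with 2.37 and 17.3 FPKM. The summed fibroblast markers of 1KO cells were also lower at day 2, at 152 against 643 FPKM. The part of remaining feeder cells in these genes was not tested. The genes lower on all 3 days included Rhox9 (−0.80, −1.35 and −0.54 at days 2, 0 and 4). The day 2 differences were correlated with those of the other days across 12152 genes, Dnmt1 left out. The mean of at least 1 FPKM required of these genes was not taken over the 2 day 2 libraries alone. The Pearson correlation was 0.23 (Spearman 0.24) with day 0 and 0.13 (0.13) with day 4. Genes are not independent, and the clone and its parent are the same on all days.

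The naive pluripotency list, lower at day 2 (−0.27), had medians of 0.10 at day 0 and 0.06 at day 4. The primitive endoderm list had 0.09 and 0.45, and the fibroblast markers 0.26 and 0.60. The fibroblast markers summed to 261 FPKM in 1KO cells and 646 in 1KO+1CI cells at day 4, of which the most abundant marker gave 177 and 417.

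Genes of chromosome 6 were shifted together at day 2. Its 544 genes with a mean of at least 1 FPKM had a median difference of 0.099, and 73.2% of them were higher in 1KO+1CI cells. The other chromosomes, leaving out Y with its 5 genes, had medians from −0.011 to 0.036, and 52.5% of the 11234 genes outside chromosome 6 were higher. All 15 windows of 10 Mb along chromosome 6 had a median of at least 0.05, from 0.059 to 0.17, as did 41 of 230 such windows with at least 10 genes elsewhere (17.8%). At days 0 and 4 the median of chromosome 6 was 0.023 and −0.010. Of the genes named above, Nanog, Stk31, Cav1, Mgp and Fbln2 lie on chromosome 6, and Nanog and Stk31 were lower. Chromosome 8, which carries Klf2, Col4a1 and Col4a2, had a median of −0.004 in this comparison, and −0.51 in 1KO and −0.50 in 1KO+1CI cells against WT at day 2.

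**Figure D5:**
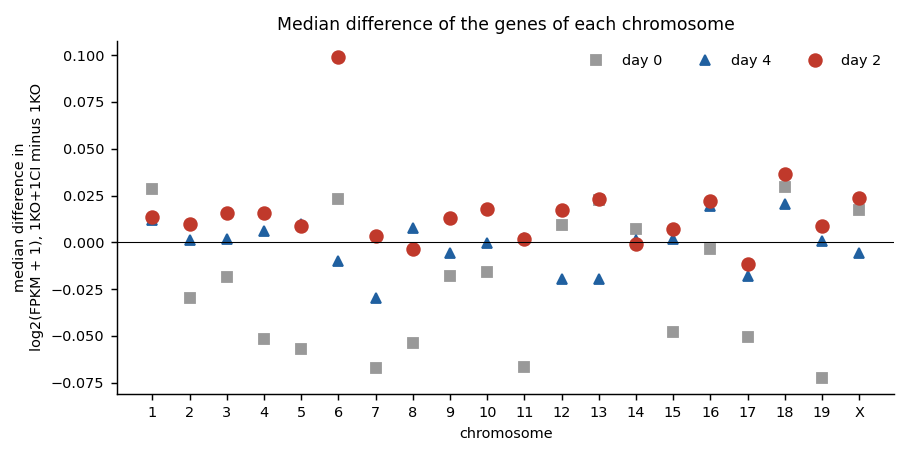
Median difference in log2(FPKM + 1) between 1KO+1CI and 1KO cells (y axis) over the genes of each chromosome (x axis) with a mean of at least 1 FPKM in the 2 libraries of day 2, at day 0 (gray squares), day 2 (red circles) and day 4 (blue triangles). At day 2 chromosome 6 stands at 0.099 and the other chromosomes shown between −0.011 and 0.036.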

How the data were processed

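Poly(A) RNA of 9 cultures, 1 per line and day, had been sequenced. The authors used Trim Galore for trimming, HISAT2 (genome mm10) for alignment and SAMtools, and made the deposited FPKM tables of genes and repeat copies with analyzeRepeats.pl of HOMER. Versions, strand setting and handling of multi-mapped reads were not given in the sources used here. FPKM of a symbol was averaged over its transcripts, as the decimals show.

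Here 21 of 15095 entries of the gene table were left out, at most 0.117% of summed FPKM. No column belonged to other samples. Differences were taken in log2(FPKM + 1), with 1 as the threshold for genes, 0.5 for list members and families of at least 10 copies, and 0.25 for list medians. Reads were recovered from FPKM steps, which 92.1% of 32203 copies tested but only 17.8% of 14817 genes fell on, within 0.1 of a step. Both steps were tested on simulated data. Named are Dnmt1, the 12 largest rises and 12 deepest falls outside small RNAs (1 FPKM or more in either library), the highest and lowest member of each of 42 lists and members past 0.5, any member of a list whose median is beyond 0.25, fixed families and the 5 highest and 5 lowest others. Further genes were chosen after their values were seen. Some genes that the rule names are not reported here. Members and lists were chosen with earlier results of these data known. Other pseudocounts, scalings and filters were tried. Positions are of GRCm38, from GENCODE and RefSeq. Python 3.11.15, numpy 2.4.6, pandas 2.3.3, scipy 1.17.1 and matplotlib 3.10.9 were used.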

Additional observations from a re-analysis of the deposited data

Results flagged for a closer look

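3 genes differed strongly in opposite directions on different days, and the difference between days was not tested because each line and day had 1 library. Erdr1 in 1KO+1CI minus 1KO cells was −1.26 at day 2 and 1.98 at day 4. Rab20 differed by 1.02 at day 2 and by −1.38 at day 4. Rpl17, whose reads may be shared with processed copies, differed by 1.44 at day 2 and by −1.49 at day 0.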

How the results depend on the processing

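With 1 library per condition no result has a replicate check. No paired analysis was possible because each group held 1 library. The counts of 23 genes higher and 28 lower by at least 1 became 272 and 209 with 0.1 in place of 1 added before the logarithm and 506 and 391 with 0.01, where genes of few reads enter. They were 350 and 252 at a threshold of 0.5, and 14 and 12 without small RNAs, an alternative chosen after seeing the data. The 3 lists with a median beyond 0.25 became 7 with 0.1 added, 9 with 0.01, and 5 among genes of at least 1 FPKM, where the Hox list rests on 1 gene. The 1 higher and 1 lower repeat family became 71 and 65 with any number of copies, and 0 and 0 at a threshold of 1. With the median over copies 3 families were lower, (CAAAAA)n, L1MB2 and MER21B, and the 1 higher was BGLII in place of L1MA6. With scaling by the repeats 0 were lower, as LSU-rRNA_Hsa moved from −0.518 to −0.499, just short of the threshold. Of 475 other values of named genes and families and of chromosome 6 under these alternatives 398 moved little and 77 moved more. The sign changed in 16, all of repeat families under 0.5 in size, 14 with the median over copies (MLT1A1 from −0.39 to 0.21, RLTR6_Mm from 0.16 to −0.25) and 2 with scaling by the repeats. Genes under about 1 FPKM rest on few reads at this depth.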
